A study of Mus musculus with 138 samples.

Results

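Ibsp, Spp1, Dmp1 and Mepe encode 4 members of the SIBLING family (small integrin-binding ligand, N-linked glycoproteins), the acidic phosphoproteins of bone and dentin matrix. They were taken by name, not by a cut on their measured levels, as 4 of the 55487 genes in the count tables. Earlier results of these data were known, and the study had used Ibsp and Spp1 as markers of osteoblast populations. The samples were wild-type C57BL/6J mouse embryos at E16.5 or E18.5 (E, embryonic day), and no group carried an allele or received an agent. Suture mesenchyme (SM), the unmineralized tissue between skull bones, and the osteogenic fronts (OF) at the bone edges were cut out by laser capture from the frontal, coronal, lambdoid and sagittal sutures. The fronts were those of the frontal bone (FR) in the frontal suture, of the frontal and parietal bones (FR and PA) in the coronal suture, of the interparietal and parietal bones (IP and PA) in the lambdoid suture, and of the parietal bone (PA) in the sagittal suture. This gave 20 groups of 5 embryos, 100 RNA-seq libraries from 40 embryos, each library being 1 region of 1 embryo. Single cells of the coronal suture were profiled in 4 further libraries, 2 at each age, each from pooled embryos. Embryos differed between sutures and between ages, so levels were not tested between sutures. The 40 embryos came from 17 litters by their labels, 2 to 4 litters for each suture and age, with up to 4 of 5 embryos from 1 litter. No litter held embryos of both ages, and 3 litters gave embryos to more than 1 suture. The 100 libraries held 7305627 to 34518477 counts each, with a median of 14244957.

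SIBLING proteins are secreted by osteoblasts and osteocytes into the collagen matrix, where they bind calcium and hydroxyapatite through runs of acidic and phosphorylated residues and bind cells through an integrin-binding motif. Bone sialoprotein (Ibsp) favours the nucleation of mineral, and osteopontin (Spp1) slows crystal growth and serves as an attachment protein for osteoclasts. Dentin matrix protein (Dmp1) is a product of late osteoblasts and osteocytes that takes part in phosphate balance. Matrix extracellular phosphoglycoprotein (Mepe) is an osteocyte product whose acidic peptide restrains mineral deposition.

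The genes stand side by side on mouse chromosome 5, all on the plus strand, within 238.4 kb from the start of Dmp1 to the end of Spp1 (mm10 annotation). Dmp1 spans chr5:104202613-104214102, Ibsp chr5:104299171-104311469, Mepe chr5:104325329-104338611 and Spp1 chr5:104435118-104441050. Dspp (chr5:104170712-104180127), the remaining member of the family and a gene of dentin, lies just before Dmp1 and did not reach the expression minimum. It had counts in 2 of 40 SM and 3 of 60 OF libraries. The sequence just upstream of each start is shown because these neighbours were higher at the fronts in most comparisons. The windows are RefSeq sequence of GRCm38.p6, plus strand, at chr5:104202367-104202612 (Dmp1), chr5:104299037-104299170 (Ibsp), chr5:104325079-104325328 (Mepe) and chr5:104434861-104435110 (Spp1). Each window ends at the start of the annotated gene or at the RefSeq start, whichever comes first. The Ibsp window is shorter because the annotated gene begins before the RefSeq start (chr5:104299287). Capitals mark matches on either strand. The motifs searched were the TATA element TATAAA, the box CCAAT, the Runx site core TGTGGT, the homeodomain core TAATT, the site TGANTCA of the AP-1 factors, the core TGACG of cyclic AMP response elements and the E-box CANNTG.
Dmp1: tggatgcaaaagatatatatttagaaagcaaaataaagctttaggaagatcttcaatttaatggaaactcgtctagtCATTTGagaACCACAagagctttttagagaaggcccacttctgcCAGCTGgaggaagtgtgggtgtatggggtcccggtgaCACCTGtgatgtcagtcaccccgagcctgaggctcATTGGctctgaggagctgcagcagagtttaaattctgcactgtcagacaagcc
Ibsp: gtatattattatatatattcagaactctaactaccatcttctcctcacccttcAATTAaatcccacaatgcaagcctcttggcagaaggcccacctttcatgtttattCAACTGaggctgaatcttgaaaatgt
Mepe: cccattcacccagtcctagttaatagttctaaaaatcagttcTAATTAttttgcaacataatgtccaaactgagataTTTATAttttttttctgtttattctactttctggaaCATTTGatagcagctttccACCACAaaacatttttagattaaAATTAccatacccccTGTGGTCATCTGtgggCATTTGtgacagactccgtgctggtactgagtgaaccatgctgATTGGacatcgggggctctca
Spp1: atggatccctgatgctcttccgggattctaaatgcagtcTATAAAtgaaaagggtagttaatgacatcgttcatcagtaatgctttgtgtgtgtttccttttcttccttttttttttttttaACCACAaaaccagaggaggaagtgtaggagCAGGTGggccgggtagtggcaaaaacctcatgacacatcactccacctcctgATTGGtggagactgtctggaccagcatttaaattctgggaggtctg
TGTGGT occurred once in the Dmp1 window, 2 times in the Mepe window and once in the Spp1 window. Windows of the same length before all 32851 RefSeq promoters searched held it in 13.8% (Dmp1 length) and 14% (Mepe and Spp1 length) of cases. The Ibsp window held no TGTGGT, against 7.51% of windows of its length. Those windows end at a RefSeq start and the Ibsp window ends before its own. All shares set beside Ibsp here thus compare unlike positions. CCAAT occurred once in Dmp1, Mepe and Spp1, with a share of all windows of 33.5% at the Dmp1 length and 33.8% at the Mepe and Spp1 length, and not in Ibsp (22.8%). TATAAA occurred in Mepe and Spp1 (12.4% of windows). The Mepe match lay at -173 to -168 and the Spp1 match at -211 to -206, counted back from the RefSeq start that ends each of these windows. TAATT occurred once in Ibsp (13% of windows of its length) and 3 times in Mepe (25%), where a pair of matches overlapped on opposite strands. CANNTG was in every window (43.8% of windows at the Ibsp length, 66.2% at the Mepe and Spp1 length). TGANTCA and TGACG were in none of the 4. These matches describe letters only.

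At the fronts, Ibsp had the highest mean of the 4 in all 12 front groups in CPM (counts scaled to the effective size of each library) per kb of exon, and it was higher than in SM in every comparison. Spp1 had its highest group means in the frontal fronts at both ages, whose libraries overlapped with those of the sagittal front at E18.5. Dmp1 was near 0 in SM and present in every front library. Mepe was barely detected outside the fronts. Counts, with 5 embryos per group, were compared between OF and SM of the same embryos with edgeR's quasi-likelihood test, and p-values were adjusted by Benjamini-Hochberg over the 19768 genes that passed the minimum of 1 CPM in over 10% of libraries. In bulk tissue, fewer cells of a type and less RNA per cell cannot be told apart. A gene was called at an adjusted p under 0.05. By this rule Ibsp was called in 12 of 12 comparisons and Spp1 in 10, each higher in OF. At E16.5 the share of all tested genes called higher in OF was 6.68% in the frontal suture, 17.1% (FR) and 19.7% (PA) in the coronal suture, 7.77% (IP) and 14% (PA) in the lambdoid suture and 13.4% in the sagittal suture. At E18.5 the shares were 6.05% in the frontal suture, 4.15% (FR) and 13.6% (PA) in the coronal suture, 11.3% (IP) and 13.8% (PA) in the lambdoid suture and 16.8% in the sagittal suture. Dmp1 was called in 12 and Mepe in 7 comparisons, also higher in OF. Both passed the minimum through their OF libraries, since only 3 SM libraries reached 1 CPM of Dmp1 and none reached 1 CPM of Mepe, so their counts of calls are a description and are not read against these shares.

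**Figure D1:**
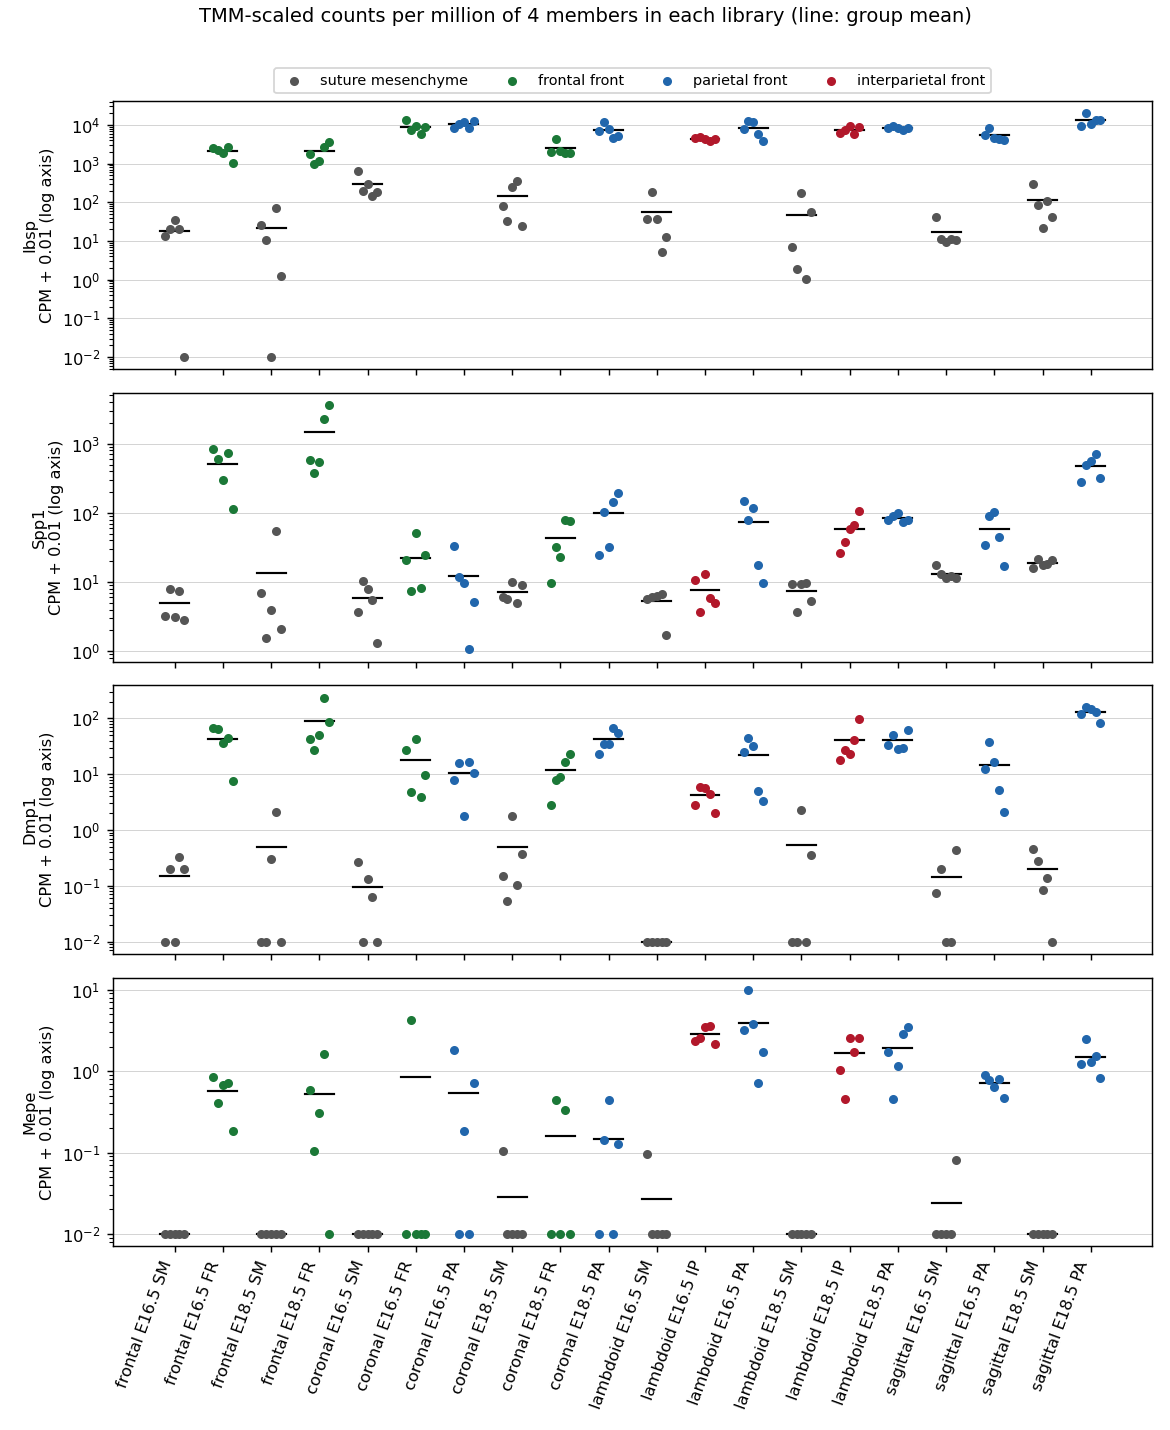
Level of Ibsp, Spp1, Dmp1 and Mepe in each of the 100 laser-captured libraries, as CPM plus 0.01 on a log axis, by group. Each point is 1 library (n = 5 embryos per group) and each line a group mean. Ibsp and Dmp1 of OF lie above those of SM of the same suture and age throughout, the means of Spp1 are highest in the frontal fronts, and Mepe is at 0 in all but 3 SM libraries.

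For Ibsp, the mineral-nucleating member, the fronts stood above SM in every suture. In the frontal suture at E16.5 it was at 2464, 2268, 1842, 2715 and 1051 CPM in FR and 13.5, 20.9, 34.2, 20.1 and 0 CPM in SM of the same 5 embryos. At E18.5 the frontal FR libraries held 1732, 1005, 1166, 2703 and 3706 CPM and the SM libraries 25.95, 10.8, 0, 70.6 and 1.25 CPM. No SM library of the frontal suture came near a front library at either age. The log2 fold change (OF over SM) was 7.02 ± 0.68 (SE, adjusted p = 1.5e-12) at E16.5 and 6.82 ± 0.70 (adjusted p = 1.8e-11) at E18.5. The latter was 7.64 without replicate 4, whose SM library was the highest of its group, and 6.14 without replicate 5. Leaving out a replicate number took it from all groups at once, here and below.

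Coronal Ibsp at E16.5 was 13041, 7221, 9403, 5955 and 8635 CPM in FR, 8288, 10561, 12220.1, 8418 and 12306 CPM in PA, and 660.3, 197, 299, 149 and 181 CPM in SM. At E18.5 it was 1956, 4424, 2171, 1889 and 1879 CPM in FR, 7172, 11914, 7995, 4714 and 5247 CPM in PA, and 78.3, 31.8, 247, 355 and 24.1 CPM in SM. The E16.5 coronal mesenchyme had the highest Ibsp mean of the 8 SM groups (143.7 CPM per kb, against a lowest of 8.18 in sagittal SM at E16.5), and its 5 libraries held 149 CPM or more. The OF minus SM difference was log2 5.01 ± 0.59 (FR) and 5.34 ± 0.60 (PA) at E16.5 and 4.32 ± 0.60 (FR) and 5.92 ± 0.63 (PA) at E18.5. Without replicate 4, the highest SM library at E18.5, the values of that age were 5.07 and 6.63.

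Lambdoid Ibsp at E16.5 was 4492, 4746, 4368, 3761 and 4346 CPM in IP, 7645, 12548, 11791, 5703 and 3894 CPM in PA, and 36.3, 189, 37.9, 5.02 and 12.9 CPM in SM. At E18.5 it was 6107, 7397, 9154, 5968 and 8908 CPM in IP, 8123, 9587, 8105, 7251 and 8083 CPM in PA, and 6.80, 1.83, 169, 1.04 and 56.2 CPM in SM. At E18.5 the fronts lay between 5968 and 9587 CPM and SM between 1.04 and 169 CPM. At E16.5 the IP lay between 3761 and 4746 CPM, the PA between 3894 and 12548 CPM. The IP differed from SM by log2 6.85 ± 0.67 at E16.5 and 7.79 ± 0.70 at E18.5, and the PA by 7.59 ± 0.68 and 8.01 ± 0.71. Without the replicate number of the highest SM library these were 7.69 (IP) and 8.33 (PA) at E16.5 (without replicate 2). At E18.5 they were 8.92 (IP) and 9.19 (PA) (without replicate 3).

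Sagittal Ibsp was 5611, 8126, 4626, 4393 and 4117 CPM in PA and 41.9, 11.3, 9.47, 11.4 and 10.48 CPM in SM at E16.5. At E18.5 the PA libraries held 9556, 20481, 10422, 13142 and 13779.9 CPM and the SM libraries 302, 87.5, 21.4, 107 and 41.9 CPM. This E18.5 front had the highest Ibsp mean of the series, 6517 CPM per kb, against 997.3 in the frontal FR at E18.5, the lowest front. The log2 differences were 8.45 ± 0.72 and 7.38 ± 0.68. The E18.5 value was 7.97 without replicate 1, whose SM library held 302 CPM. Groups did not overlap in any of the 12 Ibsp comparisons. How many of all genes stand apart in this way was not counted, so overlap is a description only, here and below.

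Spp1, which restrains crystal growth, was at 113 CPM or more in every frontal front library. In the frontal suture it was 837, 608, 297, 726 and 113 CPM in FR and 3.23, 7.96, 3.13, 7.37 and 2.80 CPM in SM at E16.5. At E18.5 FR held 588, 379.6, 536, 2256 and 3602 CPM and SM 6.88, 1.52, 3.93, 54.0 and 2.11 CPM. All frontal FR libraries were above all frontal SM libraries. The log2 differences were 6.63 ± 0.50 (adjusted p = 9.1e-17) and 6.93 ± 0.50 (adjusted p = 4.8e-17). The E18.5 value was 8.24 without replicate 4, whose SM library held 54.0 CPM, and 6.06 without replicate 5.

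Coronal Spp1 at E16.5 was 20.9, 7.41, 51.4, 8.12 and 24.7 CPM in FR, 33.2, 11.8, 9.58, 1.06 and 5.08 CPM in PA and 3.73, 10.46, 8.01, 5.54 and 1.33 CPM in SM. At E18.5 it was 9.66, 31.9, 23.1, 78.2 and 76.5 CPM in FR, 24.9, 103, 32.3, 144 and 191 CPM in PA and 5.99, 5.70, 9.99, 4.96 and 8.93 CPM in SM. Both E16.5 fronts and the E18.5 FR overlapped with SM, and the E18.5 PA did not. The E16.5 PA difference did not pass the test (log2 0.89 ± 0.53, adjusted p = 0.18, with log2 0.02 without replicate 1, the highest PA library, to 1.46 with the second libraries in place of the first), while the E16.5 FR (1.82 ± 0.51), the E18.5 FR (2.34 ± 0.46) and the E18.5 PA (3.50 ± 0.45) were called. The E16.5 FR call was lost without replicate 3, whose FR library was the highest (log2 1.42, adjusted p = 0.067), and with each suture and age fitted by itself (adjusted p = 0.0702), and its value was 2.45 without replicate 2.

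Lambdoid Spp1 at E16.5 was 10.8, 3.66, 13.3, 5.98 and 5.03 CPM in IP, 149, 77.8, 117, 17.9 and 9.69 CPM in PA and 5.67, 6.18, 6.34, 6.69 and 1.70 CPM in SM. In IP, 2 libraries lay above the highest SM library and 3 within the SM range, and the difference did not pass the test (log2 0.57 ± 0.73, adjusted p = 0.73). The PA difference was called at log2 3.62 ± 0.56. At E18.5 lambdoid Spp1 was 26.7, 38.3, 58.7, 65.9 and 108 CPM in IP, 79.1, 90.7, 99.02, 74.5 and 79.9 CPM in PA and 9.37, 3.67, 9.52, 9.61 and 5.26 CPM in SM. Neither E18.5 front overlapped with SM (log2 2.93 ± 0.53 for IP and 3.52 ± 0.52 for PA).

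Sagittal Spp1 was 34.0, 91.7, 104, 44.7 and 17.2 CPM in PA and 17.6, 13.2, 11.6, 12.2 and 11.6 CPM in SM at E16.5. At E18.5 it was 282, 492, 571, 703 and 316 CPM in PA and 15.8, 21.9, 17.4, 17.99 and 21.1 CPM in SM. One E16.5 front library (17.2 CPM) lay within the SM range, and the E18.5 groups stood apart. The log2 differences were 1.96 ± 0.44 (adjusted p = 0.00038) and 4.58 ± 0.42 (adjusted p = 4.3e-14). Over all 12 comparisons the Spp1 groups did not overlap in 7, again without a count over all genes.

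Dmp1, the member of late osteoblasts and osteocytes, had a count in 22 of 40 SM libraries and reached at most 2.25 CPM there. In frontal FR it was 66.2, 63.6, 36.2, 44.1 and 7.39 CPM at E16.5 and 43.3, 26.7, 49.5, 236 and 86.9 CPM at E18.5. In sagittal PA it was 12.3, 37.8, 16.7, 5.11 and 2.14 CPM at E16.5 and 119.9, 160.2, 147, 127 and 84.3 CPM at E18.5. The coronal fronts held 1.80 to 43.3 CPM at E16.5 and 2.74 to 66.1 CPM at E18.5. The lambdoid fronts held 2.00 to 44.1 CPM at E16.5 and 18.2 to 95.5 CPM at E18.5. Groups did not overlap in any of the 12 Dmp1 comparisons, a separation favoured by the expression minimum, which Dmp1 passed through its OF libraries. In the 10 comparisons whose SM libraries held counts the log2 difference was 4.42 to 9.34. Several of these values moved when a replicate number, often that of a high SM library, was left out of all groups. Without replicate 3, the highest SM library of both sutures at E18.5, they were 6.17 (FR, from 4.42) and 8.10 (PA, from 6.36) in the coronal suture and 8.78 (IP, from 6.11) and 8.87 (PA, from 6.24) in the lambdoid suture. Without replicate 4 the frontal E18.5 value was 9.72 (from 7.45). The value was 7.94 in the coronal PA at E16.5 without replicate 1 (from 7.01), 7.99 in the sagittal PA at E16.5 without replicate 5 (from 6.79), 10.00 in the sagittal PA at E18.5 without replicate 1 (from 9.34) and 5.43 in the lambdoid IP at E18.5 without replicate 5. All 5 lambdoid SM libraries at E16.5 had 0 counts, and against a floor of 3 counts over that group Dmp1 was at least 73.2-fold higher in IP and at least 365-fold higher in PA.

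Mepe, the restrainer of mineral deposition, had 4 counts over all 40 SM libraries and 926 over the 60 OF libraries, of which 48 held a count. It was called in both coronal fronts at E16.5, in all 4 lambdoid front groups and in the sagittal PA at E18.5. The 4 lambdoid front groups had the highest means, with 2.33, 2.51, 3.50, 3.52 and 2.17 CPM in IP and 3.15, 9.90, 3.79, 0.713 and 1.71 CPM in PA at E16.5. At E18.5 the lambdoid values were 1.03, 0.445, 2.52, 1.68 and 2.56 CPM in IP and 1.72, 0.449, 1.15, 2.81 and 3.47 CPM in PA. No other front exceeded 4.19 CPM. Against the floor, Mepe was at least 24.02-fold (IP) and at least 28.4-fold (PA) higher in the lambdoid fronts at E18.5 and at least 36.9-fold in the sagittal PA at E18.5. The frontal FR held 0.172 to 0.844 CPM at E16.5 and 0 to 1.61 CPM at E18.5, with all frontal SM libraries at 0 counts, and neither difference was called (adjusted p = 0.165 and 0.31). With 1 SM count, the ratio was 151 (95% counting interval 26.7 to 6003) in the lambdoid IP at E16.5 and 190.0 (33.7 to 7545) in the PA. All 82 counts of the coronal FR at E16.5 came from 1 library, and the second library of that embryo and region had 0 counts. The call in that front rests on 1 library, and without its replicate number log2 was 0.01 (adjusted p = 1). It was lost under 5 of 15 alternatives in all. The coronal PA call at E16.5 was lost under 8 of 15, among them without replicate 1 (adjusted p = 0.302), 3, 4 or 5, and the lambdoid calls at E18.5 were lost without replicate 1, 3, 4 or 5 for the IP (adjusted p 0.0678 to 0.139) and without replicate 4 or 5 for the PA (0.0627 and 0.103).

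**Figure D2:**
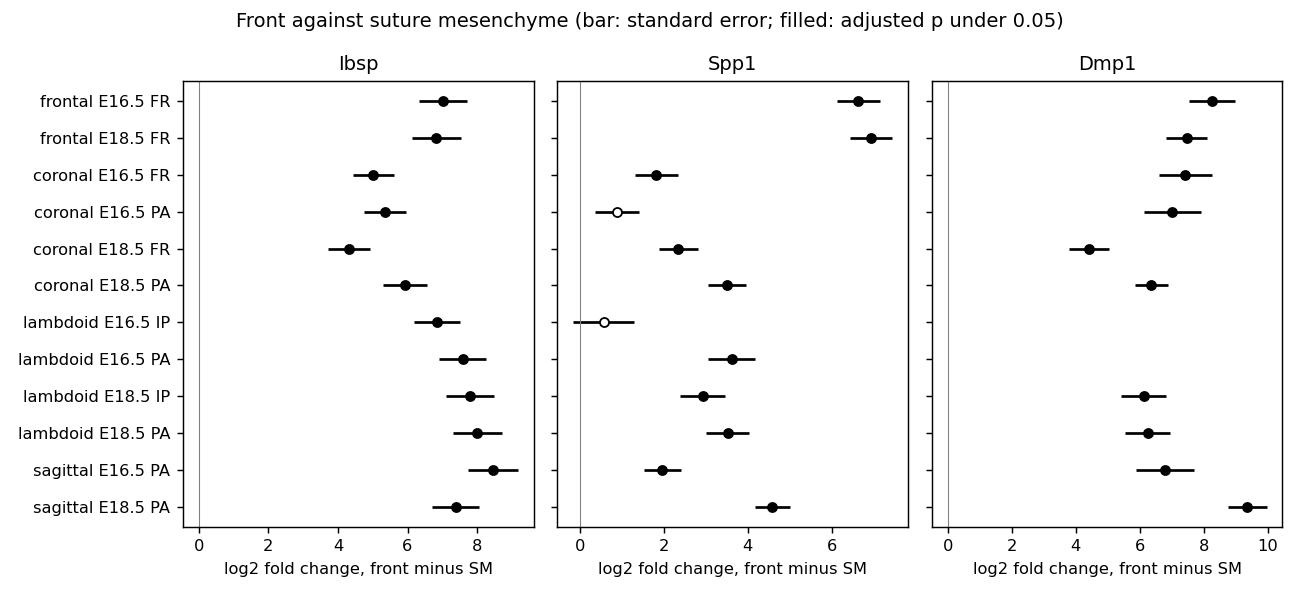
Log2 fold change of OF over SM with its SE for Ibsp, Spp1 and Dmp1 in the 12 comparisons (5 embryos each), filled where the adjusted p was under 0.05. Ibsp lies between 4.32 and 8.45 throughout, whereas Spp1 ranges from 0.57 in the lambdoid IP at E16.5 to 6.93 in the frontal FR at E18.5. Mepe and the lambdoid E16.5 values of Dmp1, whose SM libraries held 0 counts or few, are left out.

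Second libraries exist for 18 coronal regions of the same embryos. Scaled together with the first libraries, which moves their values slightly, the 12 front pairs held Ibsp at 1881 to 13084 CPM in the first library and 2287 to 14569 CPM in the second. Spp1 of these pairs was 7.49 to 144 CPM in the first and 7.44 to 100.2 CPM in the second. In coronal SM at E16.5 Spp1 was lower in the second library of all 3 embryos, at 3.69 and 2.02 CPM, 10.4 and 3.66 CPM, and 8.01 and 2.58 CPM. The widest Dmp1 ratio in a front was in replicate 3 of the coronal PA at E16.5, with 1.82 CPM in the first library and 7.59 CPM in the second, and Dmp1 of SM replicate 2 at E16.5 went from 0 to 10 counts. Mepe had 82 counts in the first and 0 in the second library of replicate 2 of the FR at E16.5, and 40 against 8 in replicate 1 of the PA.

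Whether the fronts of one suture differ was asked within embryos. The shares of all genes called in either direction were 19% in the coronal suture at E16.5, 1.17% in the lambdoid suture at E16.5, 11.8% in the coronal suture at E18.5 and 0.0405% in the lambdoid suture at E18.5. At E16.5 the lambdoid IP was lower than the PA in Spp1 (log2 -3.04 ± 0.52, adjusted p = 0.000249) and in Dmp1 (-2.26 ± 0.50, adjusted p = 0.00758), in 5 of 5 embryos each, and the ranges overlapped. In the same comparison 2 of 12 osteoblast markers were lower, 1 of 5 osteocyte markers was lower (Phex, an endopeptidase of phosphate balance, -1.70), and 5 of 7 erythroid markers were lower, while 3 of 10 chondrocyte and 2 of 5 muscle markers were higher. The part of these markers was not tested. Ibsp of the lambdoid IP was not called (log2 -0.74 ± 0.50, adjusted p = 0.88). The Dmp1 call was lost without the embryo as a replicate block (adjusted p = 0.0556), without replicate 1 (0.133) or 2 (0.182), under DESeq2 (0.261) and under limma voom (0.958), whereas Spp1 was called under all 15 alternatives.

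In the coronal suture at E18.5 the FR was lower than the PA in Ibsp (-1.60 ± 0.50, adjusted p = 0.0266), Spp1 (-1.16 ± 0.37, adjusted p = 0.0273) and Dmp1 (-1.94 ± 0.32, adjusted p = 5.5e-06), in 5 of 5 embryos for each. Only the Ibsp ranges did not overlap. Of 12 osteoblast markers, 10 were lower in the FR, among them Phospho1 (-1.61), a phosphatase of matrix vesicles, and Ifitm5 (-1.01), a membrane protein of osteoblasts, 3 of 5 osteocyte markers were lower, and all 12 endothelial, 2 of 13 macrophage and 1 of 10 chondrocyte markers were higher in it. Their part in the differences was not tested. Without the replicate block the adjusted p was 0.053 for Ibsp and 0.147 for Spp1, and both calls were lost under DESeq2 (0.413 and 0.209). The Ibsp call was also lost without replicate 1, 3 or 4 (0.0731 to 0.107) and the Spp1 call without any 1 of the 5 (0.0503 to 0.112). Both were lost with total counts without TMM and with the second coronal libraries in place of the first, and Spp1 under limma voom, which left Ibsp called in 8 and Spp1 in 5 of 15 alternatives. The Dmp1 call was lost under DESeq2 (0.141) and limma voom (0.281). No member was called between the coronal fronts at E16.5, where log2 FR minus PA was -0.33 ± 0.49 (Ibsp), 0.93 ± 0.46 (Spp1) and 0.41 ± 0.37 (Dmp1), nor between the lambdoid fronts at E18.5. Spp1 of the coronal fronts at E16.5 was called without replicate 1 (log2 1.70, adjusted p = 0.0191), and Mepe without replicate 2 (-6.29). All 82 Mepe counts of that FR came from replicate 2. The Mepe value thus sets the PA against FR libraries at 0 counts and is not a measured fold. Dmp1 ranged from log2 -0.38, without replicate 3, to 0.99, without replicate 4, and was called under none of the 15.

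Between ages, Spp1 and Dmp1 were both called higher at E18.5 in 3 fronts, and Ibsp was called in none of the 3. The shares of all genes called in either direction were 2.82% (SM) and 4.83% (FR) in the frontal suture, 36.5% (SM), 31.8% (FR) and 27.8% (PA) in the coronal suture, 2.53% (SM), 0.283% (IP) and 0.941% (PA) in the lambdoid suture, and 1.73% (SM) and 2.57% (PA) in the sagittal suture. Of 40 member comparisons, 9 were called. In the coronal suture, where 27.8% to 36.5% of all genes were called, a call sets a member little apart from other genes. Litters differ between the ages, so age, litter and any difference in handling cannot be told apart, and embryos of 1 litter were counted as separate samples. In the coronal PA, mean Spp1 was 12.2 CPM at E16.5 and 99.3 at E18.5 (log2 3.01 ± 0.59, adjusted p = 5.1e-05), and mean Dmp1 was 10.6 and 42.6 CPM (1.97 ± 0.44, adjusted p = 0.00036). In the lambdoid IP, Spp1 was 7.74 and 59.5 CPM (2.94 ± 0.70, adjusted p = 0.0304) and Dmp1 4.16 and 40.9 CPM (3.32 ± 0.60, adjusted p = 0.00073). In the sagittal PA, Spp1 was 58.3 and 473 CPM (3.02 ± 0.54, adjusted p = 8.0e-05) and Dmp1 14.8 and 128 CPM (3.12 ± 0.44, adjusted p = 1.5e-07). In the other 3 fronts neither was called. Log2 of Spp1 was 1.51 in the frontal FR, 0.98 in the coronal FR and 0.20 in the lambdoid PA, and that of Dmp1 was 1.04, -0.54 and 0.96. The lambdoid IP calls were lost without replicate 2, 3, 4 or 5 for Spp1 (adjusted p 0.107 to 0.21) and without replicate 5 for Dmp1 (0.0749), both were lost under limma voom (0.77 and 0.297), and DESeq2 gave 0.0729 for Dmp1 of the coronal PA. Log2 of Spp1 in the coronal PA was 4.08 without replicate 1 and 2.40 without replicate 5, and that of Dmp1 in the sagittal PA 3.73 without replicate 2. In the coronal PA 2 of 12 osteoblast markers were lower at E18.5, 2 of 5 osteocyte markers higher and 1 lower, 5 of 12 endothelial markers lower and 1 higher, and 2 of 8 osteoclast (1 lower) and 2 of 13 macrophage markers higher. Of 10 chondrocyte markers 1 was higher and 1 lower there, 1 of 5 muscle markers was higher and 1 of 7 erythroid markers lower. In the lambdoid IP 1 of 12 osteoblast markers was higher and 1 of 5 muscle markers lower. The part of these markers was not tested. The Spp1 ranges of the ages did not overlap in the lambdoid IP and sagittal PA, nor the Dmp1 ranges in all 3 fronts. The share of all genes whose ages do not overlap was not counted. In the sagittal PA 4 of 12 osteoblast markers were higher and 1 lower at E18.5, among the former Bglap (2.20) and Bglap2 (3.75), the osteocalcin genes, and 4 of 5 osteocyte markers were higher, with Phex at 1.81. Of the other lists, 11 of 12 endothelial and 4 of 7 erythroid markers were higher and 1 of 10 chondrocyte markers lower there. Their part was not tested.

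**Figure D3:**
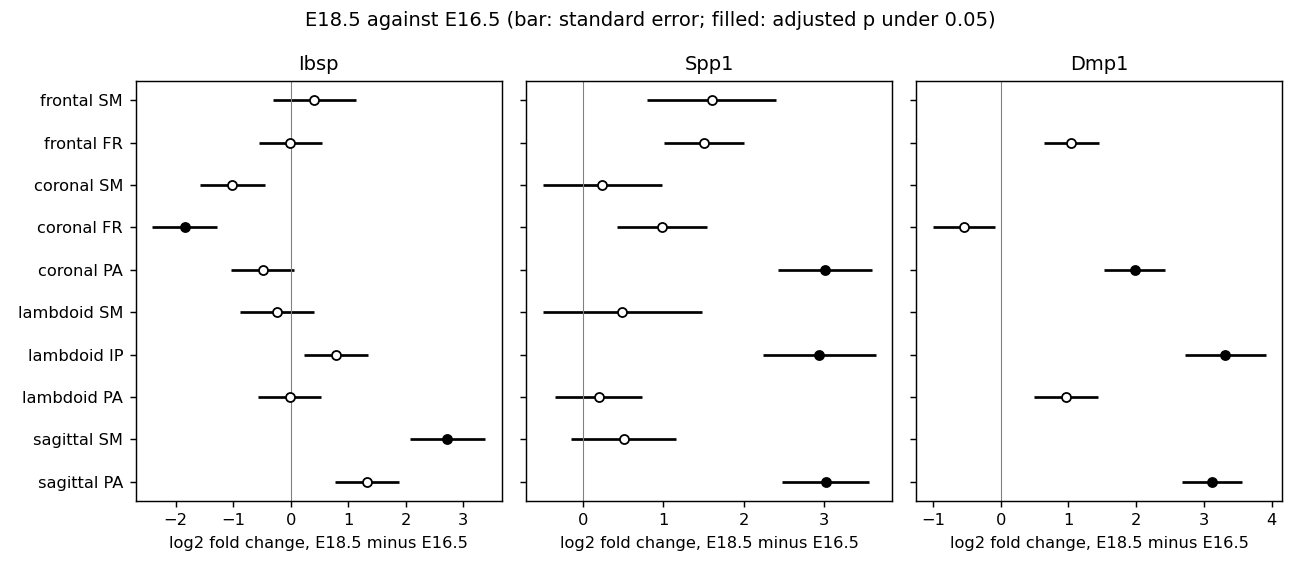
Log2 fold change of E18.5 over E16.5 with its SE for Ibsp, Spp1 and Dmp1 in the 10 suture regions (5 embryos per age), filled where the adjusted p was under 0.05. Spp1 and Dmp1 lie well above 0 in the coronal PA, lambdoid IP and sagittal PA, and Ibsp lies below 0 in the coronal FR. Mepe and the Dmp1 values of SM, which rest on few counts, are left out.

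Ibsp itself fell by 1.84 on the log2 scale in the coronal FR (SE 0.56, adjusted p = 0.0079), from a mean of 8851 to 2464 CPM with no overlap of the ages. With the second coronal libraries in place of the first the difference was log2 -1.65 and not called (adjusted p = 0.0602). In the same front 6 of the 12 osteoblast markers were lower at E18.5, and 2 of 5 osteocyte markers were lower and 1 higher. Of the other lists, 10 of 13 macrophage, 7 of 12 endothelial, 2 of 8 osteoclast and 2 of 5 muscle markers were higher (median log2 4.42 over the 5 muscle markers), and 1 of 10 chondrocyte markers was higher and 1 lower. Their part was not tested. Ibsp of the sagittal SM was higher at E18.5 (16.9 against 112 CPM, log2 2.73 ± 0.66, adjusted p = 0.0084), with overlapping ranges. In that comparison no osteoblast marker of 12 was called, 4 of 10 chondrocyte markers were lower and 2 of 12 endothelial markers higher, and their part was not tested. That call was lost without replicate 1 (adjusted p = 0.11), the highest SM library of both ages, and under limma voom (0.566). The ages also did not overlap for Ibsp in the lambdoid IP (means 4343 and 7507 CPM) and in the sagittal PA (5374 and 13480.0 CPM). The lambdoid difference (log2 0.79) was called under none of 14 alternatives. The sagittal difference was not called (1.33 ± 0.56, adjusted p = 0.27) and was called under 3 of 14 alternatives, without the low-count filter, under limma voom and with each suture and age by itself (adjusted p 0.000175 to 0.542 over the 14). Frontal FR Spp1 was at 516 and 1472 CPM (1.51 ± 0.50, adjusted p = 0.0587), which did not pass. The E18.5 mean rests on 2 libraries of 2256 and 3602 CPM, and the other 3 lay within the E16.5 range. Of 14 alternatives 4 called it, with adjusted p from 0.00109 to 0.712 and log2 from 0.62, without replicate 5, to 1.99, without replicate 1. Mepe of the coronal FR was called lower at E18.5 on the strength of the 1 library with 82 counts. Without its replicate number, which was left out at both ages, the log2 value was 3.48 (adjusted p = 0.354).

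The difference between OF and SM was itself compared between the ages. The shares called were 0.0405% (frontal), 13.4% (coronal), 0.177% (lambdoid) and 0.228% (sagittal). Spp1 of the sagittal suture was the one member called, its OF minus SM difference being 2.61 ± 0.60 larger on the log2 scale at E18.5 (adjusted p = 0.0286). This call was lost without any 1 of the 5 replicate numbers (adjusted p 0.0556 to 0.231) and without the replicate block (0.564). Each suture was also set against the mean of the other 3, with shares of 6.49% (frontal), 25.5% (coronal), 1.7% (lambdoid) and 5.36% (sagittal). Embryos differed between sutures, and only 3 of 17 litters gave embryos to more than 1 suture. Suture, litter and any difference in handling thus cannot be told apart. In the coronal suture, with 25.5% of all genes called, a call sets a member little apart from other genes. Spp1 of the frontal suture exceeded the others by log2 4.09 ± 0.41 (adjusted p = 1.2e-10). Without replicate 4 the value was 4.735. Coronal differences were smaller than the mean of the others for Spp1 (-2.10 ± 0.39, adjusted p = 3.5e-05) and Ibsp (-2.32 ± 0.41, adjusted p = 1.2e-05). For Ibsp of the frontal suture the value was 0.05 ± 0.51. Dmp1 and Mepe are not given here because their SM counts were at or near 0.

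**Figure D4:**
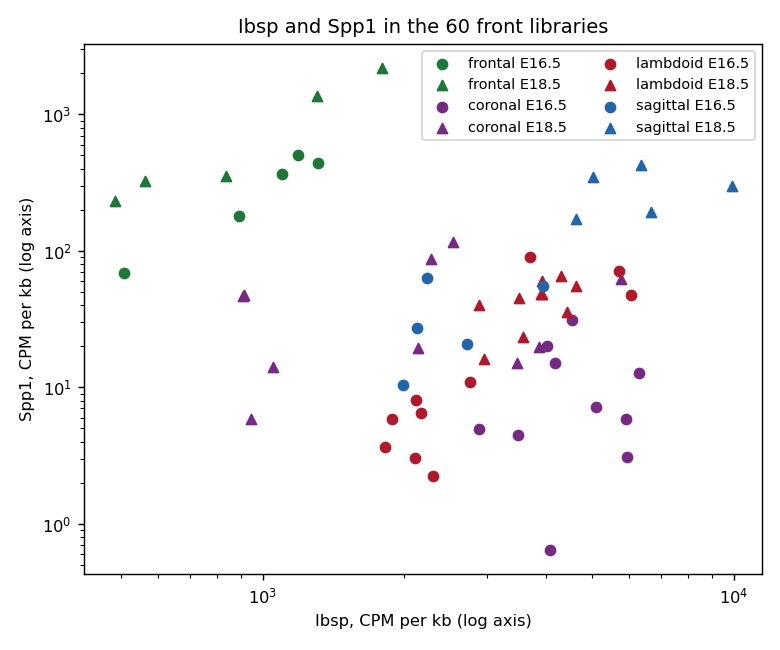
Spp1 against Ibsp, in CPM per kb of exon on log axes, in the 60 front libraries by suture. The frontal fronts lie apart, at 0.820 to 7.40 times as much Ibsp as Spp1, and every other front library has Ibsp at least 14.6-fold above Spp1.

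The ratio of the 2 most abundant members varied between fronts. Per kb of exon (2068 bases for Ibsp and 1648 for Spp1), the median ratio of Ibsp to Spp1 was 2.98 in the frontal FR at E16.5 and 1.73 at E18.5. At E16.5 it was 497 (FR) and 1016 (PA) in the coronal fronts, 501 (IP) and 129 (PA) in the lambdoid fronts and 78.2 in the sagittal PA. At E18.5 the medians were 74.8 (coronal FR), 91.9 (coronal PA), 124 (lambdoid IP), 80.6 (lambdoid PA) and 27.04 (sagittal PA). The ranges of the frontal groups (0.820 to 7.40) did not reach those of any other front. These ratios describe the captured fronts and are not read as the make-up of osteoblasts. Complete sutures at E18.5 had ratios of 0.727 to 0.888 (coronal), 0.964 to 1.49 (lambdoid), 1.12 to 1.47 (frontal) and 1.54 to 2.00 (sagittal). In single osteoblast-like cells of the coronal suture at E18.5, Ibsp was at 10480.0 and 15390.0 CPM and Spp1 at 19810.0 and 17440.0 CPM. The source of the gap was not tested. Osteoclasts can also carry Spp1. The summed level of the 11 osteoclast markers had group medians of 185 to 336 CPM in OF and 202 to 373 CPM in SM, and 8 of the 11 were tested, of which 0 to 3 were higher and 1 to 2 lower in OF. In the frontal FR the medians at E16.5 and E18.5 were 61.6 and 69.1 CPM of Ctsk (cathepsin K), 2.84 and 2.14 CPM of Acp5, 0.26 and 0.339 CPM of Atp6v0d2, 0.332 and 0 CPM of Ocstamp and 0 CPM of Dcstamp at both ages. The part of osteoclasts in the Spp1 levels was not tested. The macrophage markers summed to group medians of 120 to 285 CPM in OF and 116 to 537 CPM in SM.

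Genes acting on SIBLING proteins were tested over the same 12 comparisons. Of 10 enzymes of phosphorylation and cleavage 9 were tested, and 2 to 5 were higher and 0 to 3 lower in OF, with a list median between -0.47 and 0.86 against -0.07 to 0.00 for all genes. Phex and Pcsk6, a proprotein convertase, were higher in all 12 (median log2 5.80 and 2.62), Fam20c, the kinase that phosphorylates secreted proteins, in 10 (2.20), and Mmp2, a gelatinase, was lower in 10 (-1.30). Of 9 integrin and CD44 receptor genes 0 to 3 were higher and 0 to 4 lower (list median -0.57 to 0.08). Over the 12 comparisons this made 15 of 108 higher and 26 of 108 lower, beside 821 to 3902 of 19768 genes higher and 733 to 4584 lower in a single comparison, so nothing is read from the list as a whole. Itgb5 and Itga9 were lower in 8 comparisons each, Itgb1 was higher in 7 and Itga8 was lower in 5. Itgb3, which encodes the beta chain of the osteopontin receptor of osteoclasts, was higher in 5. In the osteoclast list, which also holds Itgb3, Nfatc1 was lower in 10. Mmp9 and Slc9b2 of that list were each higher in 1 and lower in 2. Among 12 osteoblast markers 8 to 11 were higher and 0 to 2 lower, with Phospho1, Ifitm5, Alpl and Sp7 higher in all 12. Of 8 osteocyte markers 5 were tested. Phex and Ptprz1, a receptor phosphatase, were higher in all 12 comparisons and Fbln7 was lower in 6 and higher in 1. The chondrocyte list had 0 to 2 of 10 tested genes higher and 1 to 7 lower, the endothelial list 0 to 8 of 12 higher and 0 to 12 lower, the macrophage list 0 to 2 of 13 higher and 0 to 12 lower, the erythroid list 0 to 5 of 7 higher and 0 to 3 lower and the muscle list 0 to 4 of 5 higher and 0 to 5 lower.

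The neighbours of the cluster were described in the same comparisons. Within 500 kb there were 27 genes including the members, 16 of them tested. Of the 12 tested neighbours 7 were called in at least 1 comparison. The share of all genes called at least once was not counted, so nothing is read from this number. Pkd2, a cation channel gene after Spp1, was lower in OF in 8, and Nudt9 was higher in 4. Gm42793 was higher in 7. This gene (chr5:104435121-104436372, plus strand) overlaps the first exons of Spp1, and how reads touching both were counted is not given in the sources used here, so values of Gm42793 are uncertain, as are those of Spp1, and the ratios of Ibsp to Spp1, as far as such reads were lost to it.

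Over the 20 group means of log2 CPM, described by Pearson's r without a test, Ibsp was most like Smpd3 (0.99), a sphingomyelinase of bone mineralization, Car3 (0.98), Tcf7 (0.98), Slc13a5 (0.98), a citrate transporter, and Sgms2 (0.98), a sphingomyelin synthase. Spp1 was most like Gm42793 (0.96), Bglap2 (0.91), Lipc (0.90), Gm44794 (0.87) and Dmp1 (0.83). Dmp1 was most like Gm43891 (0.96), Phex (0.95), Carmil1 (0.95), Col11a2 (0.95) and Myom1 (0.95), and Mepe was most like Epha8 (0.94), 1700051A21Rik (0.94), 1700110K17Rik (0.91), Gm4081 (0.91) and Phospho1 (0.91). The points are 8 SM and 12 OF groups, so these values include the step between SM and OF. Over the 12 front groups alone r was 0.87 for Spp1 and Dmp1 and -0.36 for Ibsp and Spp1.

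In single cells of the coronal suture most UMIs of the members lay in osteoblast-like cells. Of the E16.5 libraries, the first kept 466 of its 1530 barcodes (median 2501 UMIs) and the second kept 337 of its 1482 (median 2121 UMIs). Of the E18.5 libraries, the first kept 2412 of its 2628 barcodes (median 18476 UMIs) and the second kept 1577 of its 1999 (median 7131 UMIs). The names of the deposited E18.5 matrices carry the code of the other age, and ages here follow the sample labels. More than 800 genes were detected in 2625 and 1624 cells of these libraries and in 497 and 359 cells of those labelled E16.5. The former pair equals the final cell numbers that the methods of the study give for its later age, and the latter lies below those for the earlier one. One barcode occurred in both E16.5 libraries and 5 in both E18.5 libraries. Chemistries differed between the ages, which were not compared, and no test was made over 2 libraries. Cells were clustered without the members. At E16.5 the osteoblast-like cluster (38 cells) was led by Ifitm5, Hbb-y, Smpd3, Sgms2 and Col22a1, with the globin gene Hbb-y standing out among bone genes. It held Ibsp at 14850.0 and 24170.0 CPM in libraries 1 and 2, Spp1 at 13750.0 and 3963 CPM and Dmp1 at 77.7 and 329 CPM. In library 1, 1 cell held 373 of the 708 Spp1 UMIs of the 17 osteoblast-like cells, and 52.9% of them held any. In library 2, 61.9% of 21 held any, with at most 117 of 301 Spp1 UMIs in a cell. No Mepe UMI was found in any cell at E16.5. Of 4 other cell filters or cluster settings tried at E16.5, 3 gave no cluster that met the naming rule. This cluster was 3.65% and 6.23% of the cells and held 80.3% (exact 95% interval 77.6 to 82.8) and 93.5% (92.3 to 94.5) of Ibsp UMIs, 86.7% (84.1 to 88.9) and 85.3% (81.1 to 88.8) of Spp1 UMIs, and all 4 and 25 Dmp1 UMIs. Intervals cover counting error only. Endothelial-like cells, with median UMIs of 2948 and 1985 against 2866 and 2913 in the osteoblast-like cells, had 1 and 0 Ibsp UMIs. In an unnamed cluster led by Rgs5, Tnn and Mmp13, Ibsp was at 214 and 540 CPM and Spp1 at 460 and 186 CPM, above endothelial-like cells. In library 1, 132 Ibsp UMIs of an unnamed cluster led by Acp5 and Cma1 came from 2.56% of its 39 cells.

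At E18.5 the osteoblast-like cluster (528 cells, 122 and 406 by library) was led by Smpd3, Bglap, Bglap2, Col22a1, Sgms2 and Ifitm5. It held Ibsp at 10480.0 and 15390.0 CPM, Spp1 at 19810.0 and 17440.0 CPM, Dmp1 at 390 and 548 CPM and Mepe at 3.08 and 4.44 CPM. It held 61.6% and 89.0% of Ibsp UMIs, 54.1% and 78.0% of Spp1 UMIs and 54.3% and 84.1% of Dmp1 UMIs, in 5.06% and 25.8% of the cells. Of 17 and 20 Mepe UMIs, 9 and 15 were in it. Outside this cluster the levels were lower. Endothelial-like cells, which should lack these genes, had Ibsp at 233 and 445 CPM, Spp1 at 550.3 and 955 CPM and Dmp1 at 12.8 and 34.2 CPM, and 100% and 92.6% of them held an Ibsp UMI at median depths of 23934 and 10226 UMIs, against 22624 and 7475 in the osteoblast-like cells. The source of these UMIs was not tested. Endothelial-like cells were the lowest cluster for Ibsp in both libraries. Proliferating-like cells had Ibsp at 399 and 935 CPM and Spp1 at 1260 and 1378 CPM. In library 1, 1 cell held 2148 of the 5895 Spp1 UMIs of the proliferating-like cells. With each cell thinned to 3000 UMIs, Dmp1 was found in 27.9% and 33.5% of osteoblast-like cells, from 63.1% and 52.7% before thinning, and in 7.14% and 11.1% of endothelial-like cells. One unnamed cluster of 723 cells, led by Gpx3, Cp and Mmp13, held Ibsp at 329 and 538 CPM and Spp1 at 2030.0 and 3005 CPM. Its Ibsp lay near, and its Spp1 well above, the endothelial-like values.

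**Figure D5:**
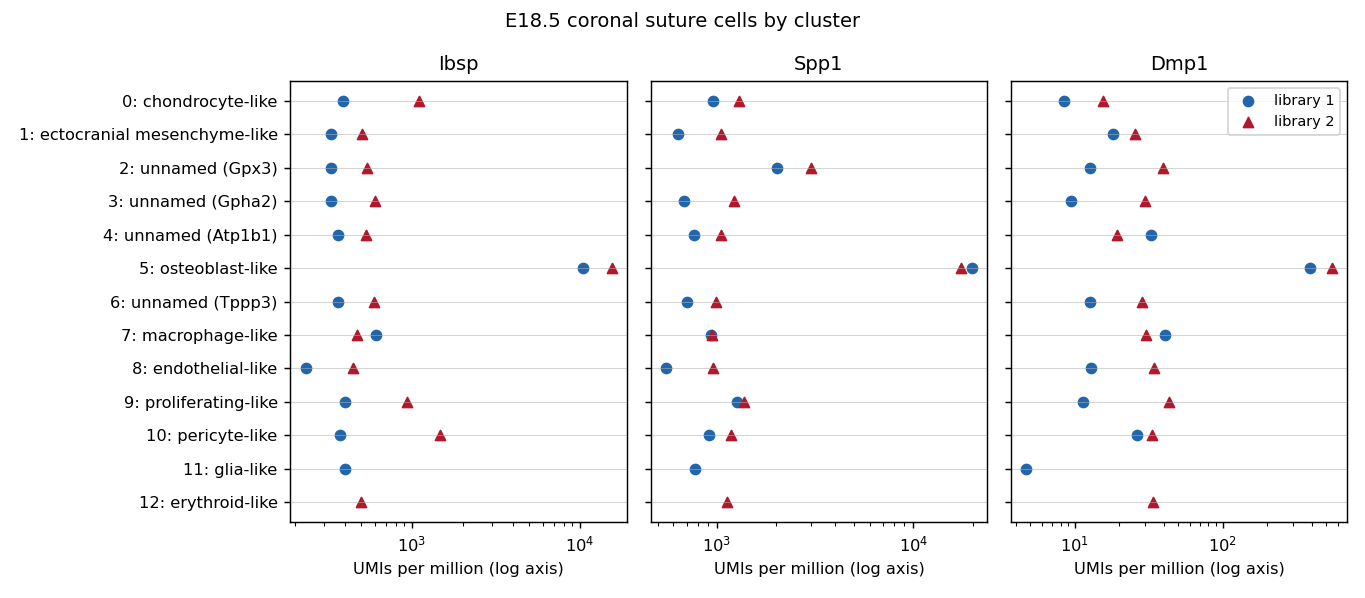
UMIs of Ibsp, Spp1 and Dmp1 in each cluster of the E18.5 coronal single-cell libraries, scaled to the UMIs of the cluster (CPM), on a log axis, with a point for each of the 2 libraries. The osteoblast-like cluster stands above the others in all 3 genes, and the unnamed cluster led by Gpx3 comes next in Spp1 at 2030.0 and 3005 CPM. Clusters of under 10 cells in a library are not drawn for it.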

How the data were processed

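Laser-captured regions were sequenced after amplification (Ovation RNA-Seq V2, Nextera XT). The authors trimmed reads with cutadapt, aligned them with STAR 2.5.3a to mm10 and counted exon reads per gene, without strand, with featureCounts 1.6.4. The deposited counts were used as raw counts. A deposited table of the authors' own log2 ratios was not used. The 4 single-cell files hold deposited UMI counts.

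CPM and tests came from edgeR 4.0.16 in R 4.3.3 (TMM, over 1 CPM in over 10% of libraries, glmQLFit and glmQLFTest, Benjamini-Hochberg over 19768 genes for each comparison, threshold 0.05). The SE given is the absolute log2 fold change divided by the square root of the F statistic of its test. Comparisons within embryos carried the embryo as a block, since both regions came from 1 animal. The residuals of SM and OF of 1 embryo had a median correlation of 0.0505 against -0.0121 between embryos. Age comparisons had no block. The 34 comparisons were 12 of OF with SM, 4 between fronts, 10 between ages and 8 of OF minus SM between ages or sutures. Floors are 3 counts over a group. Counting intervals do not cover amplification.

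Cells with over 800 genes and within 3 median absolute deviations were clustered in scanpy 1.11.5 (2000 variable genes without the members, 13 components, 100 neighbours, Leiden 0.8). A cluster was named from its markers by a rule set after the data were seen. No doublet caller was run.

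The members and gene lists were chosen with earlier results of these data known. Named list genes are those of each list called in the largest number of the 12 comparisons of OF with SM, at most 4 a list, and Itgb3 is named from the osteoclast list. Single markers given beside a result were picked after their values were seen. Genes most like a member are the 5 with the highest Pearson's r. Simulated counts were run through a part of the bulk methods only. The outcome of that run is not given here, so nothing is read from it about the accuracy of the comparisons. Alternatives were another normalization, filter, test, block or replicate set, the second coronal libraries, and other cell filters and cluster settings. A replicate number was left out of all groups at once, and no single library was left out by itself.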

Additional observations from a re-analysis of the deposited data

Results flagged for a closer look

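Within groups of 5, the highest or lowest library was compared with the rest on log2(CPM + 1), by the gap to its nearest neighbour as a share of the group's range. In 9 of 66 groups with enough counts this share was above 0.71, Dixon's 95% critical value. That value holds for normally distributed samples. Some groups were at 0 counts in most libraries, such as Mepe of the coronal FR at E16.5, with counts in 1 library. The number of flagged groups is therefore not set against a chance rate. High single SM libraries made up 4 of these. Dmp1 was at 1.79 CPM in coronal SM replicate 3 at E18.5, at 2.10 CPM in frontal SM replicate 4 at E18.5 and at 2.25 CPM in lambdoid SM replicate 3 at E18.5, and these 3 libraries held Ibsp at 247, 70.6 and 169 CPM. Ibsp was at 41.9 CPM in sagittal SM replicate 1 at E16.5. The low SM libraries were frontal SM replicate 5 at E16.5, with Ibsp at 0 CPM, and lambdoid SM replicate 5 at E16.5, with Spp1 at 1.70 CPM. Among the fronts, frontal FR replicate 5 at E16.5 was low in Dmp1 (7.385 CPM), and it was also the lowest of its group in Ibsp (1051 CPM) and Spp1 (113 CPM). Coronal FR replicate 2 at E18.5 was high in Ibsp (4424 CPM), and coronal FR replicate 2 at E16.5 was high in Mepe (4.19 CPM).

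The OF minus SM difference itself differed between sutures or ages in 4 tests of the difference. Suture or age cannot be told apart from litter and handling in these tests. It was larger in the frontal suture than over the other 3 for Spp1 (log2 4.09) and smaller in the coronal suture for Spp1 (-2.10) and Ibsp (-2.32), and Spp1 of the sagittal suture had a larger difference at E18.5 than at E16.5 (2.61).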

How the results depend on the processing

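Of 48 comparisons of OF with SM, 38 to 42 were called under 15 alternatives (41 as reported, 19 of them Dmp1 or Mepe), with Ibsp called in all 12 under every one. Dmp1 and Mepe passed the expression minimum through their OF libraries. Shares of all genes called under the alternatives are not set beside the counts of this section, which describe the members only. Suture differences of OF minus SM gave 3 or 4 calls (3 as reported) under 14. The front against front calls (5 as reported) were 1 under DESeq2, 2 under limma voom, 3 with total counts without TMM, 3 with the second coronal libraries in place of the first, 2 with no replicate block and 3 to 4 when a replicate number was left out. Age comparisons gave 14 calls without the low-count filter (9 as reported). Of the reported age calls, Spp1 of the lambdoid IP was kept in 9 of 14 alternatives and Dmp1 of that front in 12. Ibsp of the sagittal SM was kept in 12 of 14 and Mepe of the coronal FR in 4 of 13. The others were kept in 13 or 14 of 14. For the age difference in OF minus SM there were 0 calls with no replicate block and 0 to 1 when a replicate number was left out, where the 1 was Spp1 of the coronal suture, gained without replicate 1, and not the reported call of the sagittal suture. The embryo block is the reported design, and leaving it out changed no called result but those named in the report and added Mepe of the sagittal PA at E16.5. Mepe of the coronal FR reversed in age direction with the second libraries in place of the first (log2 2.644) and ranged from -3.326 to 3.481 over left-out replicate numbers, and its FR minus PA value at E16.5 ranged from -6.287 to 2.498. All 82 Mepe counts of the coronal FR at E16.5 came from replicate 2, whose second library held 0 counts. The values 3.481 and -6.287 are those without that replicate number. Why the 2 libraries differed was not tested. For single cells, the share of UMIs in osteoblast-like cells at E16.5 could be given only with 30 components (Ibsp 77.9% and 92.9%, Spp1 74.1% and 85.3%, and Dmp1 75% of 4 and 100% of 25 UMIs), since no cluster met the naming rule at 500 or 1000 genes or at resolution 1.2. At E18.5 the 4 alternatives gave 61.0% to 62.6% and 87.8% to 90.0% for Ibsp, 52.7% to 54.8% and 73.6% to 79.6% for Spp1, and 54.2% to 65.6% and 81.8% to 86.0% for Dmp1. With 5 embryos a group, amplified libraries and SM counts at or near 0, fold changes of Dmp1 and Mepe carry little precision, and Mepe at 0 to 83 counts a library leaves the order of the fronts uncertain.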

Other observations

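Complete sutures captured at E18.5 gave 16 further libraries, 4 for each suture, which stand outside the comparisons of front and mesenchyme and are given as ranges without a test. Ibsp ranged from 2949 to 4469 CPM in the coronal suture, 2365 to 3032 CPM in the lambdoid, 1131 to 1639 CPM in the sagittal and 1022 to 1257 CPM in the frontal. Spp1, whose front levels were highest in the frontal suture, ranged from 2645 to 4087 CPM in the complete coronal suture, 1282 to 2506 CPM in the lambdoid, 568 to 896.5 CPM in the frontal and 463 to 719 CPM in the sagittal. The ratio of Ibsp to Spp1 per kb of exon was 0.727 to 0.888 in the coronal, 0.964 to 1.49 in the lambdoid, 1.12 to 1.47 in the frontal and 1.54 to 2.00 in the sagittal. In the separately captured coronal fronts of that age the same ratio was at least 19.2, far above that of the complete coronal suture. Dmp1 was 181.6 to 295.5 CPM in the coronal suture, 144.8 to 234.9 CPM in the lambdoid, 46.2 to 66.4 CPM in the sagittal and 35.8 to 63.0 CPM in the frontal. Mepe reached 2.92 to 6.26 CPM in the lambdoid suture and 1.23 to 2.76 CPM in the coronal, and stayed at 0.896 CPM or less in the frontal and sagittal sutures. These libraries are labelled as normalization controls with no litter, and whether the 4 of a suture share tissue or RNA is not given in the sources used here.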
